A study of Mus musculus with 17 samples.

Results

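Transcript levels are described here for 10 genes of the naive pluripotency network of mouse cells (Nanog, Esrrb, Zfp42, Tfcp2l1, Nr0b1, Nr5a2, Tbx3, Dppa3, Prdm14 and Fbxo15), chosen by name from the 38734 genes measured. RNA was sequenced from 17 cultures on the way from embryonic fibroblasts (MEF) to induced pluripotent stem cells (iPSC). The cells were wild type for the microRNA gene Mir203 (WT), lacked it (KO), or carried the alleles ColA1_miR203 and Rosa26rtTA (KI), through which doxycycline also drives miR-203. All 3 genotypes carried the OSKM transgene, a cassette that makes Pou5f1, Sox2, Klf4 and Myc under doxycycline. There was 1 library for MEF and for days 0, 4, 6 and 7 of reprogramming in each genotype, and 1 iPSC library each for WT and KO. No KI iPSC library was analysed here. The labels list doxycycline for every culture, MEF included, and do not give the age of the embryos or say whether animals were pooled or an iPSC line was 1 clone. No combination of genotype and stage was repeated, so single values carry no error. Tests take the stages of a genotype, or the genotypes of a stage, as separate samples, and their p-values measure only the spread between these libraries, not that between cultures or embryos.

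The naive state is the ground state of mouse embryonic stem cells and of the inner cell mass, and it rests on a set of transcription factors that bind one another's genes together with Pou5f1 and Sox2. Signals from LIF through Stat3 and from BMP through the Id genes feed this set, and during reprogramming it is generally switched on late, after the fibroblast programme has receded. Nanog is a homeobox factor at its centre. Esrrb, Nr5a2 and Nr0b1 are nuclear receptors, the last of which acts mainly as a corepressor. Tfcp2l1 is a factor of the grainyhead family downstream of LIF, Zfp42 (Rex1) a zinc finger marker of the naive state, Tbx3 a T-box repressor and Prdm14 a repressor of FGF signalling and DNA methyltransferases. Dppa3 (Stella) is a chromatin protein of oocytes, naive cells and primordial germ cells, and Fbxo15 encodes an F-box protein used as a reporter of reprogramming, so these members are not sequence-specific transcription factors.

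The promoter of Nanog is printed because it holds adjoining letters of the octamer and SOX cores, which Pou5f1 and Sox2 recognise. That of Zfp42 holds an octamer core only, and that of Tfcp2l1 neither. Capitals mark the matches. The sequences are from RefSeq on GRCm38.p6, each from 250 bases before to 50 after a start site, written on the strand of the gene.
Nanog, chr6:122707315-122707614, plus strand: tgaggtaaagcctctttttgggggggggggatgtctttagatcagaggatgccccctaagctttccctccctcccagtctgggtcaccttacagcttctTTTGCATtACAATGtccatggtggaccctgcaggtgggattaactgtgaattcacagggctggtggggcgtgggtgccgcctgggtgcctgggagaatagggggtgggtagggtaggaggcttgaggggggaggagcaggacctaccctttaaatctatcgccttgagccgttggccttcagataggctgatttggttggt
Zfp42, chr8:43306960-43307259, minus strand: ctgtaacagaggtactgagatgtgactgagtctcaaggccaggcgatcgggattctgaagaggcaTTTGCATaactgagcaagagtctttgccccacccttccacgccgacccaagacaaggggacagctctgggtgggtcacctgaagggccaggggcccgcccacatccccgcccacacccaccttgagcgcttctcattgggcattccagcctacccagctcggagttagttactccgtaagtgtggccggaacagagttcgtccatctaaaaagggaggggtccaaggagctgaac
Tfcp2l1, chr1:118627695-118627994, plus strand: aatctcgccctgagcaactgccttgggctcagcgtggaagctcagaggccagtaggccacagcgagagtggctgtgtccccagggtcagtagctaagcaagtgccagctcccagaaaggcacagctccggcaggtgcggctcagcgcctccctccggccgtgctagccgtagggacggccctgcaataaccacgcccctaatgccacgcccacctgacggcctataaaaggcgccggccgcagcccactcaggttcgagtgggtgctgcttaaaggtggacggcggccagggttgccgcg
The promoter table held 9 promoters of 6 members, those of Nanog, Esrrb, Zfp42, Tfcp2l1, Nr0b1 and Nr5a2. The octamer core ATGCAAA, sought on both strands, was in 3 of these 9 and in 4.63% of 32851 promoters of the same length. The SOX core CATTGT was also in 3 of the 9, against 12.6% of all. The Nanog promoters overlap and hold the same octamer and SOX matches, so each count of 3 holds 1 site counted 2 times. By member, the octamer core was in 2, Nanog and Zfp42, and the SOX core in Nanog and Esrrb. Nothing is read from these counts. Their composite, the SOX core followed after 1 base by the octamer core, overlaps both and was spelled with the known Nanog element in mind. It was in 2 promoters of the whole table, both of Nanog and sharing 1 site. That site begins at -151 from the start printed and at -75 from the other. The Esrrb motif TCAAGGTCA and the Tfcp2l1 motif, CCAG and CCNG with 6 bases of any kind between them, were in 0 of the 9, against 0.423% and 10.3% of all promoters.

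The microRNA changed in these cells is miR-203-3p, shown 5′ to 3′ with its seed, bases 2 to 8, in capitals. Of the 10 members, 1 had a match to that seed in its longest annotated 3′ untranslated region, against 16.7% of 20486 genes. That member is Tfcp2l1, whose site is shown with the match in capitals.
miR-203-3p: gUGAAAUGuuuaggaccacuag
Tfcp2l1 site: gcaaagggggacCATTTCAagcactga

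The Mir203 row checks the labels in 1 direction only. It was at 0 in every WT and KO library and at an FPKM (fragments mapped, scaled to transcript length and to the size of the library) of 569 and 185 in KI MEF and day 0, and of 7903, 5863 and 5470 in KI at days 4, 6 and 7. RNA was selected for poly(A) tails, so a level of 0 does not show that the mature microRNA was absent. The values of a library summed to between 510501 and 690770 FPKM, with 12330 to 13626 genes at 1 or more. The sources used here state no read depth, so counting error is unknown and the precision of values far below 1 is poorly known. At days 4, 6 and 7 the libraries labelled KI held Pou5f1 at 0.851, 0.491 and 0.675 and Sox2 at 0.167 or less, so RNA of these cassette genes was nearly absent there. Pou5f1 was at 266, 37.4 and 85.3 in WT and at 255, 852 and 954 in KO on the same days, with transgene and endogenous RNA not separated. In MEF and day 0 of every genotype Pou5f1 was at 1.31 or less. In bulk samples fewer cells of a type and less RNA per cell cannot be told apart, for the members below as for these genes. Sex-linked RNA set the WT MEF, day 4 and iPSC libraries apart from the rest. The Y-linked gene Ddx3y was at 0.0179, 2.74 and 1.51 in these libraries and between 14.5 and 20.0 in the other 14.

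The members are protein-coding genes in the GENCODE M21 annotation of GRCm38, and their identifiers and spans are as follows. Nanog (ENSMUSG00000012396) spans chr6:122707489-122714633 on the plus strand. Esrrb (ENSMUSG00000021255) lies at chr12:86361117-86521628 on the plus strand. Zfp42 (ENSMUSG00000051176) spans chr8:43295063-43306980 on the minus strand. Tfcp2l1 (ENSMUSG00000026380) lies at chr1:118627945-118685168 on the plus strand. Nr0b1 (ENSMUSG00000025056) spans chrX:86191764-86195947 on the plus strand. Nr5a2 (ENSMUSG00000026398) lies at chr1:136842571-136960448 on the minus strand. Tbx3 (ENSMUSG00000018604) spans chr5:119670669-119684724 on the plus strand. Dppa3 (ENSMUSG00000046323) lies at chr6:122626410-122630272 on the plus strand. Prdm14 (ENSMUSG00000042414) spans chr1:13113457-13127163 on the minus strand. Fbxo15 (ENSMUSG00000034391) lies at chr18:84934782-84981473 on the plus strand.

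In iPSC 9 of the 10 members were high, and Dppa3 was low. Nanog was the most abundant member in WT, at 171 FPKM against 156 in KO, and Esrrb in KO, at 165 against 114 in WT. In the order WT then KO, Nr0b1 followed with 75.5 and 98.2, Fbxo15 with 58.2 and 65.0, Zfp42 with 45.0 and 40.4, Tfcp2l1 with 43.3 and 43.8 and Tbx3 with 34.8 and 43.0. Prdm14 was at 13.4 and 9.15 and Nr5a2 at 11.9 and 8.62. Dppa3 was at 1.63 and 1.54. The ratio of WT to KO iPSC ran from 0.691 for Esrrb to 1.47 for Prdm14 and was within 1.5 times either way for all 10. FPKM is scaled to transcript length, so these levels may be compared between genes.

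In MEF and at day 0 only Tbx3 reached an FPKM of 1. In the 6 MEF and day 0 libraries Tbx3 was between 2.87 and 4.23, and none of the other 9 members exceeded the 0.410 of Nanog in KI day 0. Nanog itself was at 0.328, 0.390 and 0.370 in WT, KO and KI MEF, and Prdm14 was at 0 in all 6 early libraries.

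**Figure D1:**
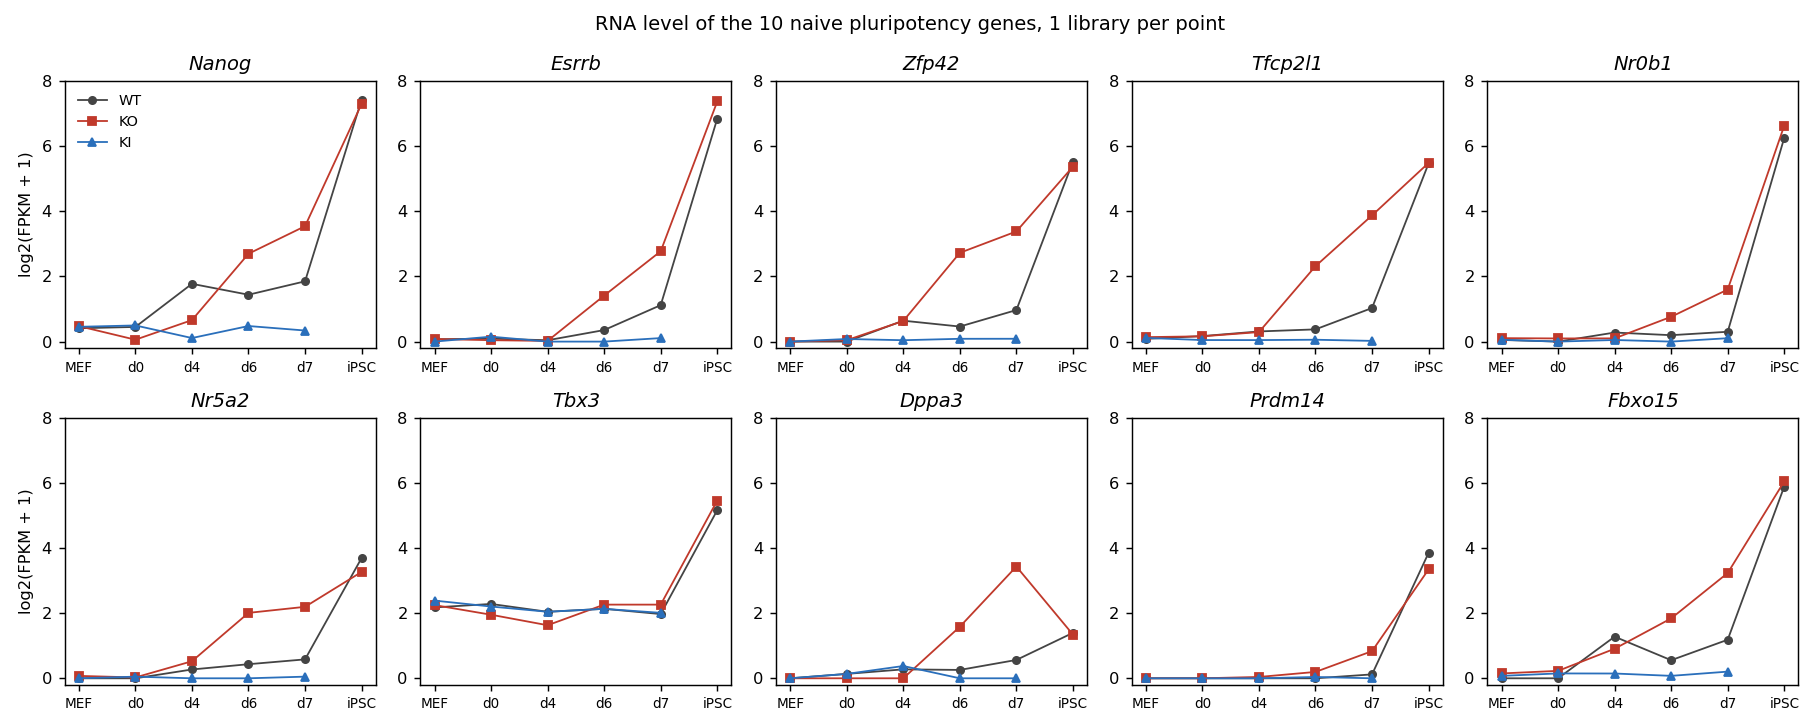
RNA level of each gene, as log2 of FPKM plus 1 (vertical axis), against stage (horizontal axis), with 1 library per point for WT (circles), KO (squares) and KI (triangles). The KO points stand above WT at days 6 and 7 in each panel, by little for Tbx3 (3.80 against 2.92 FPKM at day 7), and Dppa3 is higher in KO at day 7 (9.79) than in KO iPSC (1.54).

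Nanog had already appeared in WT at day 4 and was later highest in KO. Its FPKM was 2.42, 1.71 and 2.61 in WT at days 4, 6 and 7. It was 0.580, 5.49 and 10.7 in KO and 0.0788, 0.393 and 0.266 in KI. WT was thus highest at day 4, KO at days 6 and 7, and KI lowest on each day, at or below its day 0 value of 0.410. KO was 0.240 times WT at day 4, 3.21 times at day 6 and 4.09 times at day 7. In KO Nanog at day 7 was 18.4 times its day 4 level, and in WT 1.08 times.

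Of the nuclear receptors, Esrrb can replace Klf4 or Nanog function in some settings in mouse cells. Its FPKM was 0.0288, 0.278 and 1.17 in WT and 0.0151, 1.66 and 5.84 in KO at days 4, 6 and 7. In KI Esrrb was at 0 on days 4 and 6 and at 0.0774 on day 7. Both WT and KO were higher on each later day, with KO 4.98 times WT at day 7.

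Nr5a2 binds regulatory DNA of Pou5f1. It was at 0.206, 0.350 and 0.496 in WT, at 0.437, 3.02 and 3.58 in KO, and at 0, 0 and 0.0357 in KI. It was the only member besides Prdm14 with more RNA in KO than in WT at day 4, though both libraries were under 0.5 there. Between days 6 and 7 Nr5a2 in KO was 1.18 times as high, the smallest such step among members other than Tbx3.

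Nr0b1 was the member furthest from its iPSC level at day 7 in WT and in KO. It was at 0.212, 0.146 and 0.233 in WT and at 0.0709, 0.695 and 2.03 in KO, with 0.0749 or less in KI. At day 7 the KO library was 8.72 times WT, yet KO iPSC was 48.4 times the KO day 7 library.

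Among the zinc finger genes, Zfp42 was at 0.561, 0.378 and 0.956 in WT at days 4, 6 and 7. It was at 0.552, 5.61 and 9.43 in KO and at 0.0621 or less in KI. At day 4 the ratio of KO to WT was 0.984, and KO was 14.9 times WT at day 6 and 9.86 times at day 7. Prdm14 stayed under an FPKM of 1 in all 15 libraries before iPSC. Its highest value there was 0.782 in KO day 7, against 0.0868 in WT and 0 in KI.

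Tfcp2l1 was the most abundant of the 10 in KO at day 7. It was at 0.241, 0.297 and 1.04 in WT and at 0.224, 3.98 and 13.7 in KO, and no KI value exceeded 0.0405 on these days. The WT and KO values were close at day 4, and KO was 13.4 times WT at day 6 and 13.1 times at day 7. The KO day 7 library held 61.1 times its day 4 level.

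Tbx3 behaved unlike the other 9. It was at 3.12, 3.39 and 2.92 in WT, at 2.09, 3.80 and 3.80 in KO and at 3.12, 3.38 and 3.03 in KI. These ranges overlap one another and that of MEF and day 0 taken over all genotypes. Within WT and within KI, each of these values was below the genotype's own MEF and day 0. Those were at 3.52 and 3.86 in WT and at 4.23 and 3.60 in KI. KO iPSC held 11.3 times and WT iPSC 11.9 times the day 7 level of the same genotype.

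Fbxo15 was at 1.43, 0.470 and 1.27 in WT, at 0.875, 2.58 and 8.40 in KO and at 0.107, 0.0535 and 0.153 in KI. WT was higher than KO at day 4 and lower at days 6 and 7. KO was 5.49 times WT at day 6 and 6.60 times at day 7.

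Dppa3 was the only member whose reprogramming level passed its iPSC level. In KO it was at 0 on day 4, 2.00 on day 6 and 9.79 on day 7, against 1.54 in KO iPSC. In WT it was at 0.210, 0.195 and 0.478, against 1.63 in WT iPSC, and in KI at 0.299, 0 and 0. KO was 10.2 times WT at day 6 and 20.5 times at day 7, the widest ratio among the members on that day. Dppa3 shared 16.5% of its 50-base words with transcripts of other genes, most of them with the pseudogene Dppa3-ps, which was listed at 0 in every library. The other members shared 8.52% (Zfp42), 4.53% (Nanog) or under 1%. Primordial germ cell and germ line markers, 8 in number, summed to 30.5 in KO day 7, 5.41 in WT and 2.08 in KI, and to 45.2 and 53.1 in iPSC. Most of the KO day 7 sum was Piwil2, a gene of the piRNA pathway, at 27.5 there, 3.19 in WT and 0.270 in KI, and at 12.5 in WT iPSC. The other 7 markers summed to 3.05, 2.23 and 1.81 in KO, WT and KI at day 7 and to 32.7 and 47.9 in iPSC. Of the 8, 2 reached an FPKM of 1 in KO day 7 and 2 were at 0, while 7 reached it in each iPSC library. The part of germ line cells in the Dppa3 level was not tested.

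With a gene taken as on at an FPKM of 1, the order of activation differed by genotype. The day 4 difference between WT and KO depended on that mark. In WT Nanog and Fbxo15 were on at day 4, joined by Esrrb and Tfcp2l1 at day 7, and Fbxo15 was below the mark at day 6. In KO Nanog, Esrrb, Zfp42, Tfcp2l1, Nr5a2, Dppa3 and Fbxo15 were first on at day 6 and Nr0b1 at day 7. In KI none of these was on by day 7. Tbx3 was on in all 3 genotypes throughout and Prdm14 in none before iPSC. With Tbx3 counted, 3, 2 and 5 members were on in WT at days 4, 6 and 7, 1, 8 and 9 in KO, and 1 on each day in KI. At a mark of 0.5 FPKM Nanog, Zfp42, Fbxo15 and Tbx3 were on at day 4 in both WT and KO. In KO Nanog, Zfp42 and Fbxo15 were at 0.580, 0.552 and 0.875 there. At a mark of 5 FPKM no member was on in WT or KI on any of these days and 2 and 6 were on in KO at days 6 and 7.

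As a share of the iPSC level of the same genotype, KO reached a median over members of 0.441% at day 4, 6.40% at day 6 and 10.9% at day 7. WT reached 1.33%, 0.823% and 2.15%. KI, set against the mean of both iPSC libraries, reached 0.0589%, 0.0898% and 0.116%. In KO at day 7 the shares ran from 2.07% for Nr0b1, 3.55% for Esrrb and 6.82% for Nanog through 8.55% for Prdm14, 8.83% for Tbx3, 12.9% for Fbxo15 and 23.3% for Zfp42 to 31.2% for Tfcp2l1, 41.5% for Nr5a2 and 637% for Dppa3. The 3 members with the most RNA in KO iPSC, Esrrb, Nanog and Nr0b1, had the lowest shares. A share is divided by that iPSC level, so no link is read from this. Tbx3 stood at 8.72% already in KO MEF. With the MEF and day 0 level subtracted it had the lowest share in KO at day 7, at 1.23% against 1.99% for Nr0b1. In WT at day 7 Nr0b1 was again lowest (0.308%) and Dppa3 highest (29.3%). For comparison, 465 genes had an FPKM of at least 5 in both iPSC libraries and at least 8 times the highest of the 6 MEF and day 0 values, a set that holds 9 of the 10 members and leaves out Dppa3. Their median share was 18.5% in KO, 3.26% in WT and 0.521% in KI at day 7, each above the median of the members.

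**Figure D2:**
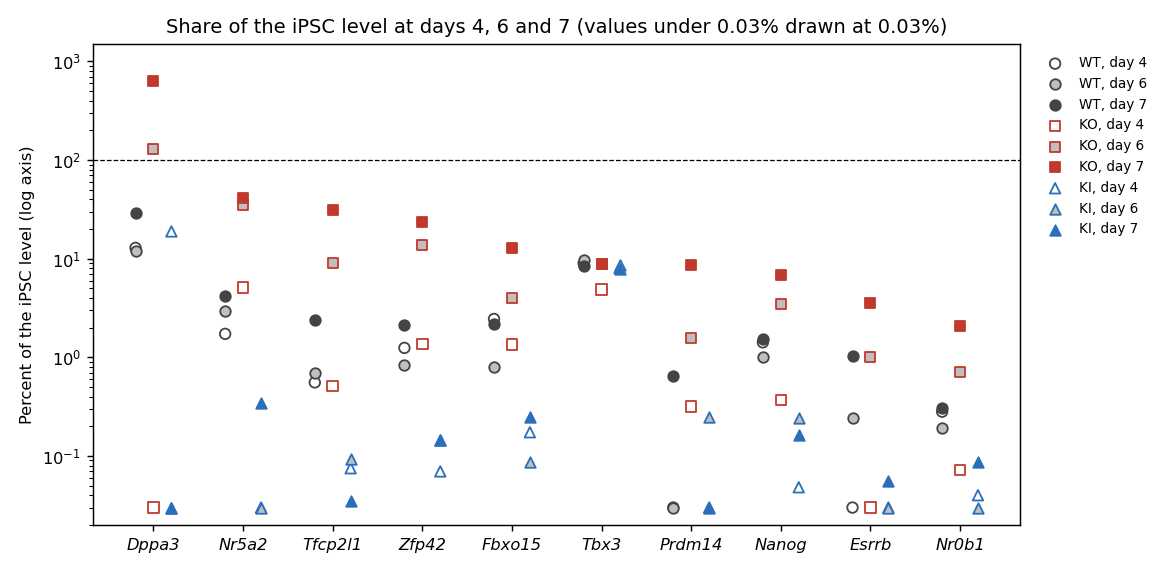
Percent of the iPSC level (vertical axis, log scale) for each gene at days 4 (open), 6 (grey) and 7 (filled) in WT, KO and KI, with genes ordered by their share in KO at day 7 and values under 0.03% drawn at 0.03%. The dashed line marks 100%, which only Dppa3 in KO crosses (130% at day 6 and 637% at day 7), while Nr0b1 reaches 2.07%.

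KO stood above WT in 2 of the 10 members at day 4, in 10 at day 6 and in 10 at day 7. Of the 14240 genes whose mean over all libraries reached 1 FPKM, KO was above WT in 46.7%, 60.7% and 63% on these days. With libraries scaled to the same upper quartile the members' counts were 2, 9 and 9, with Tbx3 lower in KO (ratios of 0.920 and 0.998 at days 6 and 7), and the shares of all genes were 46%, 47.2% and 47.2%. KI was below WT in 7, 9 and 9 members, against 57.5%, 61.4% and 67.7% of all genes. Over days 4, 6 and 7 together, 0 members had every KO value above every WT value (17.4% of genes did). KO lay wholly above KI in 6 members (45.2% of genes) and WT wholly above KI in 6 (27.2%). With at least 2-fold and an FPKM of at least 5 in 1 of the libraries, KO exceeded WT in 0 members at day 4 (7.04% of 10216 genes), in Nanog and Zfp42 at day 6 (19.5%) and in Nanog, Esrrb, Tfcp2l1, Fbxo15, Dppa3 and Zfp42 at day 7 (24.4%). The same 6 exceeded that mark between days 4 and 7 in KO (12.8% of genes), and 0 did in WT (9.18%) or KI (2.35%). On these days no member reached an FPKM of 5 in WT or KI, so each member that could be counted had reached it in a KO library, and nothing is read from these counts. With upper-quartile scaling 0 members passed at day 6 and 5 at day 7, Esrrb being lost, and all genes then split into 1331 higher and 1274 lower in KO at day 6 (2067 and 869 before scaling) and into 1500 and 1700 at day 7 (2647 and 1124). Between days 4 and 7 in KO 5 members then passed, and all genes split into 971 higher and 1002 lower (1369 and 705).

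The difference between genotypes over days 4, 6 and 7 was tested with limma on log2 of FPKM plus 1 in 15 libraries. The p-values are two-sided and Benjamini-Hochberg adjusted. Only Nanog, Zfp42, Tfcp2l1, Tbx3 and Fbxo15 had a mean FPKM of at least 1 there, and they passed through the KO libraries of days 6 and 7 or, for Tbx3, at every stage, so their counts are given as a description. Against KI, 4 of the 5 were higher in KO, where 35.8% of 13837 genes were called higher. Zfp42 was higher by 2.18 ± 0.51 (log2, SE, adjusted p = 0.011), Tfcp2l1 by 2.12 ± 0.60 (adjusted p = 0.022), Nanog by 1.99 ± 0.52 (adjusted p = 0.016) and Fbxo15 by 1.85 ± 0.46 (adjusted p = 0.013). The difference of Tbx3 was -0.01 ± 0.17. Without the filter Esrrb (1.37 ± 0.40, adjusted p = 0.042) and Nr5a2 (1.56 ± 0.29, adjusted p = 0.010) were also called, with 21.3% of 25128 genes called higher. Without the day 6 or the day 7 libraries 0 members were called (4.12% and 5.08% of genes were higher), and without the MEF or the day 0 libraries Zfp42 and Fbxo15 were (21.6% each).

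KO and WT were not separated by the same test over the 3 days. None of the 5 members passed (14.7% of genes did, 9.5% in the higher direction), with Zfp42 at 1.56 ± 0.51 (adjusted p = 0.075), Tfcp2l1 at 1.59 ± 0.60 (adjusted p = 0.10), Fbxo15 at 0.99 ± 0.46 (adjusted p = 0.16) and Nanog at 0.61 ± 0.52 (adjusted p = 0.42). Of these 5, Zfp42 and Tfcp2l1 had an unadjusted p under 0.05, as 4794 genes did. Without the filter 0 of 10 passed (4.28% of genes were called higher), with Nr5a2 nearest at 1.15 ± 0.29 (adjusted p = 0.059). The call depended on day 4. Without the day 4 libraries 4 of the 5 were higher in KO, by 2.39 ± 0.36 for Tfcp2l1 (adjusted p = 0.0031), 2.34 ± 0.18 for Zfp42 (adjusted p = 0.00042), 1.67 ± 0.29 for Fbxo15 (adjusted p = 0.0054) and 1.48 ± 0.26 for Nanog (adjusted p = 0.0053), and 39.1% of genes were then called higher. A fit with no filter and without day 4, chosen after the data were seen, called 8 of the 10 higher in KO, all but Tbx3 (0.21 ± 0.14) and Prdm14 (0.45 ± 0.15, adjusted p = 0.072), against 25.6% of 24703 genes. In that fit Dppa3 was higher by 2.10 ± 0.43 (adjusted p = 0.014), Nr5a2 by 1.60 ± 0.06 (adjusted p = 0.00019), Esrrb by 1.36 ± 0.28 (adjusted p = 0.014) and Nr0b1 by 0.93 ± 0.19 (adjusted p = 0.013). It also called 8 members higher in KO than in KI (30.9% of genes) and Nr5a2 lower in KI than in WT (5.84% of genes called lower). Without the WT MEF and day 4 libraries, which stood apart by sex-linked RNA, Zfp42 alone was called (26.8% of genes were called higher).

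Whether the KO difference changed between the early stages (MEF and day 0) and the late ones was tested as an interaction. None of the 5 members passed at an adjusted p of 0.05 or had an unadjusted p under 0.05 (3084 genes did), with 0.0795% of genes called, and the largest estimates were 1.57 ± 0.94 for Tfcp2l1 and 1.53 ± 0.81 for Zfp42. Without the day 4 libraries Nanog, Zfp42, Tfcp2l1 and Fbxo15 passed upward, as did 32.3% of all genes. With no filter as well 6 of 10 passed, Nr5a2 and Dppa3 being the additions (19.6% of genes). For KI against WT 0 members were called over days 4 to 7 (2.44% of genes, 1.71% lower), with Nanog alone at an unadjusted p under 0.05 as were 3507 genes, and 0 in the interaction (0.0723% of genes, with 1146 genes and 0 of the 5 at an unadjusted p under 0.05). The KI estimate of Nanog was -1.38 ± 0.52 (adjusted p = 0.16). Without day 4 it was -1.24 ± 0.26 (adjusted p = 0.032), and 14.4% of genes were called lower. The median of all genes was 0.17 for KO minus WT and 0.30 for KO minus KI on the deposited scale, which the members' estimates other than those of Tbx3 exceed. Upper-quartile scaling brought these medians to -0.0089 and -0.051. It turned the split of calls from 4958 higher and 1446 lower to 2647 and 3087 for KO minus KI, and from 1314 and 723 to 699 and 1036 for KO minus WT. The 4 members called in KO minus KI numbered 4 under that scaling too, and Tbx3 was -0.17 in KO minus WT.

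**Figure D3:**
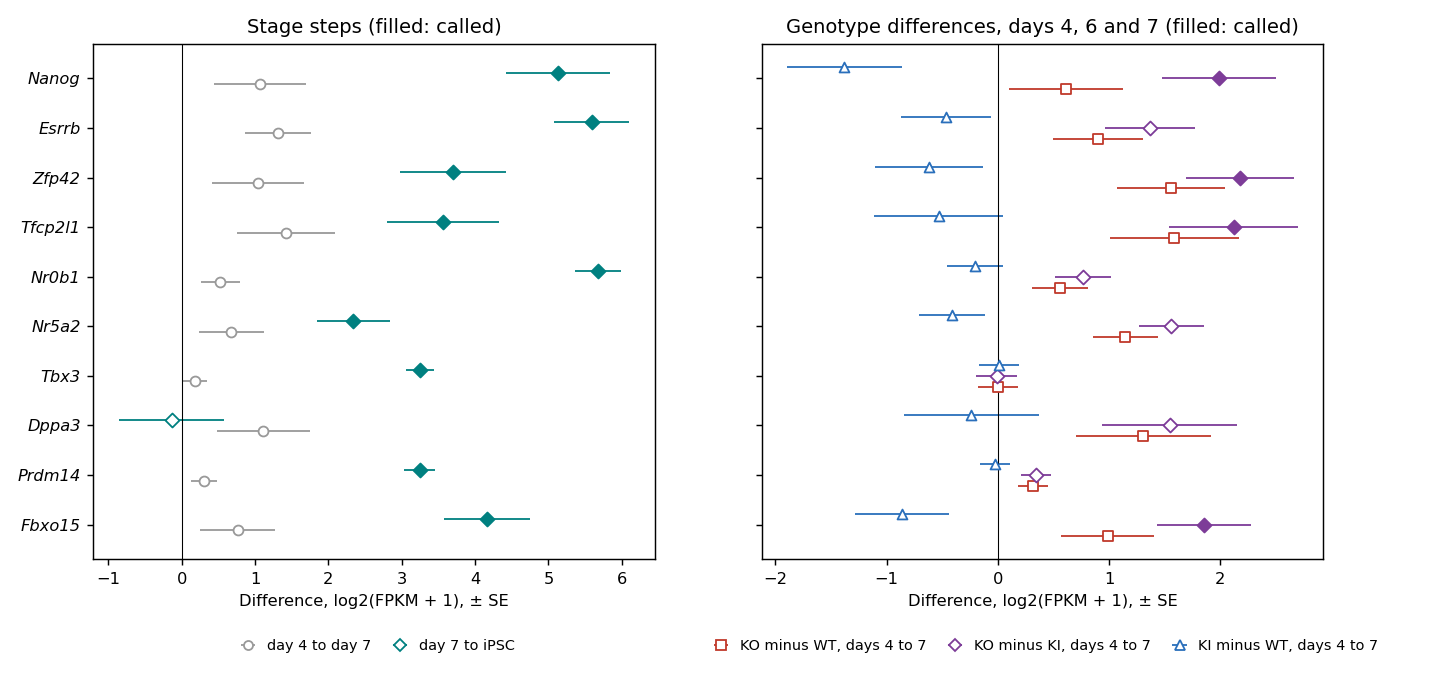
Estimated differences on the log2(FPKM + 1) scale with standard errors (horizontal axis) for each gene, from limma without the filter on low genes. The left panel shows the steps from day 4 to day 7 and from day 7 to iPSC, the right panel the genotype differences over days 4, 6 and 7. Filled symbols passed an adjusted p of 0.05 with the filter on, and open symbols did not or were not tested there. Every step from day 7 to iPSC lies right of 2 except that of Dppa3 (-0.14), and Tbx3 lies at 0 in all genotype differences.

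In the fit over stages, which averages over the genotypes, the step at which members passed the test was that from day 7 to iPSC. Single KO libraries already differed between days 4 and 7, where Tfcp2l1 had a ratio of 61.1, against 3.21 between day 7 and iPSC, and Zfp42 had ratios of 17.1 and 4.29. Those of Nr0b1 were 28.6 and 48.4. Between days 0 and 4 none of the 9 members that averaged 1 FPKM or more over the 17 libraries passed limma's test at an adjusted p of 0.05, while 22.3% of 14240 genes did. The same held from day 4 to 6 and from day 4 to 7, where 0.014% and 0.0211% of genes passed. Among these 3 steps only Esrrb from day 4 to 7 had an unadjusted p under 0.05, against 4947, 535 and 1025 genes on the respective steps. It had 1.31 ± 0.45 (adjusted p = 0.52), and Tfcp2l1 1.43 ± 0.66 (adjusted p = 0.70). From day 7 to iPSC all 9 tested rose, as did 25.6% of genes. Esrrb, Nr0b1, Nr5a2 and Prdm14 reached the mean of 1 FPKM only through the iPSC libraries, so this count is a description. Without the filter 9 of the 10 members were called, all but Dppa3, with 19.9% of 25970 genes called higher. Nr0b1 rose by 5.67 ± 0.33 (adjusted p = 7.0e-07), Esrrb by 5.59 ± 0.51 (adjusted p = 1.5e-05), Nanog by 5.13 ± 0.69 (adjusted p = 0.00020) and Tbx3 by 3.25 ± 0.19 (adjusted p = 5.9e-07). The smallest rise was that of Nr5a2 with 2.34 ± 0.52 (adjusted p = 0.0040). Without the WT libraries, which leaves 1 iPSC library, Esrrb, Nr0b1, Tbx3 and Prdm14 were called (5.89% of genes were higher), and without WT MEF, day 4 and iPSC these 4, Nanog and Fbxo15 were (11.6%).

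From MEF to iPSC the same 9 rose, by 3.06 ± 0.19 for Tbx3 to 6.87 ± 0.51 for Esrrb, and 20.5% of genes rose. The filter touches this count as it does the one from day 7, and without it 9 of the 10 were called (17.9% of genes higher). Without the WT libraries 6 of the 9 were called, with Zfp42, Tfcp2l1 and Nr5a2 lost (7.03% of genes higher). Dppa3 had a mean FPKM of 0.960 and was not in these tests. Without the filter its change was 1.20 ± 0.72 from MEF to iPSC (adjusted p = 0.25) and -0.14 ± 0.72 from day 7 to iPSC.

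The other genes of the network and its signals, a list of 36, were compared in the same fits. Of these, 34 averaged 1 FPKM or more over the 17 libraries and 29 over the 15 before iPSC. Some, Tcl1 among them, passed the filter only through the iPSC libraries, so the counts on steps to iPSC are a description. From day 7 to iPSC 23 of 34 tested rose and 5 fell, against 25.6% and 24.1% of all genes. Klf5, which acts beside Klf2 and Klf4 in naive cells, rose by 4.29 ± 0.53 (adjusted p = 0.00012), Tcl1, a cofactor of Akt, by 6.10 ± 0.41 (adjusted p = 1.7e-06), Sall4, a zinc finger partner of Pou5f1, by 3.41 ± 0.93 (adjusted p = 0.011), and Klf2 by 1.51 ± 0.37 (adjusted p = 0.0072). Il6st, the signalling chain of the LIF receptor, fell by 2.92 ± 0.63, and Stat3, Bmpr1a, Id2 and Id3 also fell. From MEF to iPSC 28 of 34 rose and Id2 and Id3 fell, against 20.5% and 21.4% of all genes. Without the WT libraries, which leaves 1 iPSC library, fewer genes of the list, as of all genes, were called on both steps.

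In KO over days 4, 6 and 7, 8 of 29 tested network genes were higher than in WT and 0 lower, where 9.5% of all genes were called higher. They were the cassette factors Klf4 (1.37 ± 0.21, adjusted p = 0.0099), Pou5f1 (2.63 ± 0.71, adjusted p = 0.046) and Sox2 (2.32 ± 0.49, adjusted p = 0.023), the DNA demethylase gene Tet2 (1.42 ± 0.33, adjusted p = 0.030), the BMP targets Id1, Id2 and Id3, and L1td1, an RNA-binding protein of stem cells (2.48 ± 0.67, adjusted p = 0.044). None was called without the MEF, day 0, day 6 or day 7 libraries (0.0289% to 0.426% of all genes were higher), and 20 were higher and 4 lower without day 4 (39.1% and 16.9%). Against KI 18 of 29 were higher in KO (35.8% of all genes), Sall4 and the RNA-binding Lin28a among them, while 5 were called higher without day 7 (5.08%) and 6 without day 6 (4.12%). In KI Pou5f1 (-5.85 ± 0.71, adjusted p = 0.011) and Sox2 (-2.61 ± 0.49, adjusted p = 0.040) were lower than in WT (1.71% of all genes), which 0 network genes were without the MEF, day 0, day 6 or day 7 libraries (0.0795% to 0.166%).

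At day 7 Tcl1 was close in WT and KO, unlike the members other than Tbx3. It was at 1.39 in WT and 1.63 in KO at day 7, against 174 and 117 in iPSC. Klf2 was higher on day 0 than on day 7, with 14.8 for WT, 12.8 for KO and 16.4 for KI against 7.20, 6.21 and 3.32. In MEF it was at 7.22, 7.71 and 8.50 in the same order, so WT day 7 was close to WT MEF.

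Of 7 repressors or antagonists of the naive state, 4 rose from day 7 to iPSC and 1 fell, against 25.6% and 24.1% of all genes. Those that rose were Tcf7l1, the repressor that Wnt signalling relieves (0.88 ± 0.22, adjusted p = 0.0083), the corepressor Tle4, Flcn and the deacetylase Hdac1, and the kinase gene Gsk3b fell. Of 12 formative and primed genes 4 were tested, and Otx2, Dnmt3b and Zic2 were called higher on that step, averaged over genotypes. Otx2 was at 0.402 in WT day 7 and 15.5 in WT iPSC, but at 2.13 in KO day 7 and 1.43 in KO iPSC. Otx2 and Zic2 passed the filter only through the iPSC libraries, so this count is a description. From days 4 to 7 KO exceeded WT in Tle4 alone among the repressors (1.36 ± 0.37, adjusted p = 0.048) and in 0 of 2 formative genes. Of all genes, 9.5% were called higher there.

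Nanog and Dppa3 are neighbours on chromosome 6, with starts 81 kb apart, and 3 of the genes around them were read for that reason. Gdf3, a TGF-beta family ligand, had day 7 levels of 1.46 for WT, 13.05 for KO and 0 for KI, and 37.6 and 41.7 in WT and KO iPSC. Slc2a3, a glucose transporter, was at 15.1, 280 and 0.545 at day 7 and at 277 and 327 in iPSC. KO at day 7 was thus close to the iPSC level for Slc2a3, where Nanog was at 6.82% of it. Apobec1 had the other order, with 20.9 in WT, 7.76 in KO and 13.1 in KI on that day. The region thus held genes with and without the members' order of genotypes.

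Summed markers of other cell types also differed between the genotypes on these days. The 16 macrophage markers measured summed at day 7 to 4351 for WT, 2240 for KI and 127 for KO, with 16, 16 and 9 of them at an FPKM of 1 or more and none at 0. Laptm5 (51.2) and Cd68 (44.6) made up most of the KO sum, and Laptm5 was at 114 and 106 in WT and KO iPSC. At day 0 the macrophage sums were already 201 for WT, 214 for KI and 10.2 for KO. The 12 fibroblast markers summed to 22040, 27562 and 4922 in WT, KI and KO at day 7, and to 741 and 152 in WT and KO iPSC, with none at 0. At day 7 Col1a1, Col1a2 and Col3a1 made up most of each sum. Thy1 alone was higher in KO (157) than in WT (95.6) on that day, and Prrx1 was close (72.1 and 73.8). In MEF, whose label the fibroblast markers test, all 12 reached an FPKM of 1 and summed to 3136 to 3779, less than in KO day 7. The 10 epithelial markers summed at day 7 to 64.3 for WT, 0.620 for KI and 1523 for KO, with 8, 0 and 10 at an FPKM of 1 or more, and to 132 and 190 in iPSC. In KO day 7, 8 trophoblast markers summed to 95.5, with 7 at 1 or more, against 7.03 in WT day 7 and 4.94 and 11.8 in iPSC. The 10 pluripotency markers outside the list summed to 64.2, 804 and 0.971 in WT, KO and KI at day 7, and to 2983 and 3937 in iPSC. The part of these cell types in the members' levels was not tested.

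**Figure D4:**
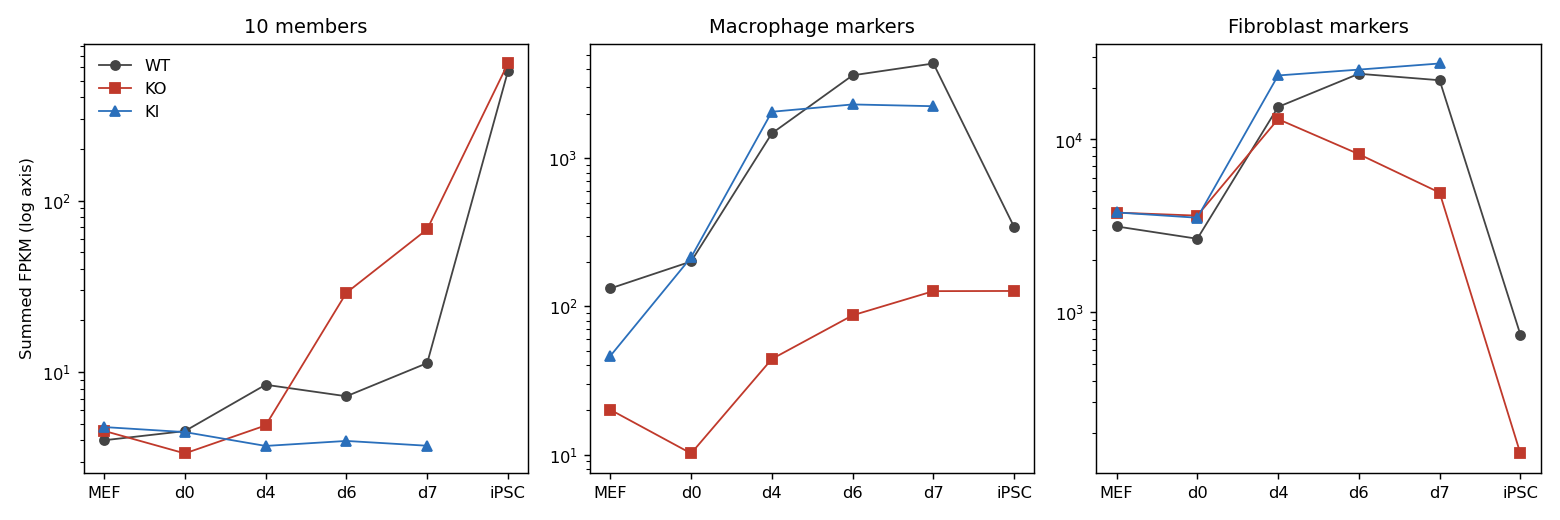
Summed FPKM (vertical axis, log scale) of the 10 genes, of 16 macrophage markers and of 12 fibroblast markers by stage, with 1 library per point for WT, KO and KI. In KO the members' sum is 68.0 at day 7 against 11.3 in WT and 3.71 in KI, while its fibroblast sum (4922) and macrophage sum (127) are the lowest of the 3 genotypes at that day. The fibroblast sum, mostly of 3 collagen genes, is still above that of KO MEF (3771).

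Most members resembled one another in pattern. Over 17 libraries the correlation (Pearson r of log2 of FPKM plus 1) between pairs had a median of 0.950 over 45 pairs and ran from 0.370 (Tbx3 with Dppa3) to 0.996. Dppa3 stood apart there, at 0.774 or less with every other member, while Tbx3 lay between 0.832 and 0.976 with the other 8. Before iPSC it was Tbx3 that stood apart. Over the 15 libraries before iPSC the 9 pairs with Tbx3 lay between 0.0138 and 0.270, while the other 36 lay between 0.805 and 0.993. All points share libraries and stages, so these values describe these cultures only. The genes outside the list closest to the mean of the members over 17 libraries were Nodal (0.996), Dppa2 (0.996) and Ly6g6e (0.994) among 14231 genes. Closest to Nanog was Taf7 (0.988), to Esrrb Olig1 (0.997), to Zfp42 Fgf4 (0.998), to Tfcp2l1 Gtsf1l (0.998) and to Nr0b1 Lrrc34 (0.999). Sh3gl2 was closest to Nr5a2 (0.996), 2410012M07Rik to Tbx3 (0.989), Prss8 to Dppa3 (0.966), Trap1a to Prdm14 (0.999) and Taf7 also to Fbxo15 (0.992). Over the 15 libraries before iPSC, a choice made after the data were seen, the closest to the mean were the keratin gene Krt42 (0.993), the adhesion gene Pecam1 (0.992) and Pglyrp1 (0.992). The closest to Nanog was then Sall4 (0.975), and to Zfp42 it was again Fgf4 (0.997).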

How the data were processed

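Poly(A)-selected, stranded RNA-seq libraries of 17 cultures were compared, 1 for each genotype and stage. Per the submitters' processing notes, which give no roles or order, the authors used FastQC, TopHat2 2.0.10, Bowtie 1.0.0, SAMtools 0.1.16, Cufflinks 2.2.1 and the mouse build GRCm38 (mm10), and deposited 1 table of FPKM values. FPKM holds no counts and no depth, so no count model or counting interval was used. Values of 41 lines that repeat 19 identifiers were summed, leaving 38734 genes, and 0 columns lacked a sample. The 10 members and all gene lists were chosen with earlier results of these data known.

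Genes that averaged 1 FPKM or more were tested on log2(FPKM + 1) with limma 3.58.1 in R 4.3.3, with a mean-variance trend, two-sided tests and a Benjamini-Hochberg adjusted p threshold of 0.05. Fold changes on that scale understate those of low genes. Stage steps were fitted with stage and genotype as terms in 17 libraries, which leaves genotypes as the samples of a stage. Genotype differences were fitted in the 15 libraries before iPSC with the genotype by period interaction, the periods being MEF with day 0 and days 4 to 7. Pairs of single libraries were compared without a test, by at least 2-fold with an FPKM of at least 5 in 1 of them. The fits were also run on simulated data with changes of known size, the outcome of which is not given here. Every member was named, with pathway genes from fixed lists and, for each member, the genes nearest by Pearson correlation. Python 3.11.15 with numpy 2.4.6, pandas 2.3.3, scipy 1.17.1 and matplotlib 3.10.9 did the rest. Alternatives were another pseudocount, no or a stricter filter, upper-quartile and quantile scaling, and leaving out a genotype, a stage or the libraries in doubt. Promoters, motifs and miR-203 come from RefSeq tables on GRCm38.p6, and gene spans from GENCODE M21, to which 37428 identifiers (96.6%) matched.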

Additional observations from a re-analysis of the deposited data

Results flagged for a closer look

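Between days 4 and 6 the WT and KO libraries moved in opposite directions in 5 of the 10 members, lower in WT and higher in KO. The KO change minus the WT change, on the log2(FPKM + 1) scale, was 2.37 for Nanog, 2.27 for Zfp42, 1.65 for Fbxo15, 1.60 for Dppa3 and 0.74 for Nr0b1. Between days 4 and 7 the same held for Fbxo15, with a difference of 2.42, and for Tbx3, with 0.70. The WT steps were small for Dppa3 (-0.018 from day 4 to 6) and for Tbx3 (-0.070 from day 4 to 7), and widest for Fbxo15 (-0.72 from day 4 to 6). Of the 14240 genes tested, 37.4% moved this way between days 4 and 6 and 37.8% between days 4 and 7. With 1 library for each genotype and day these differences between the genotypes were not tested, and nothing about the members is read from the counts. The WT day 4 library, from which each WT step starts, also stood apart by sex-linked RNA. Ddx3y was at 2.74 there, against 19.6 and 16.6 in WT at days 6 and 7.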

How the results depend on the processing

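No paired analysis of replicate cultures was possible because the labels give no replicate numbers, and a genotype has 1 library at a stage. Libraries were matched only by genotype or stage. The fit of genotype differences has stage as a term, and the fit over stages has genotype as a term. Without the genotype term the members called stayed at 0 on the 3 steps up to day 7 and at 9 on both steps to iPSC. Then 2655, 2, 1, 7011 and 5896 genes were called from day 0 to 4, day 4 to 6, day 4 to 7, day 7 to iPSC and MEF to iPSC. Read depth is unknown, which limits every value far below an FPKM of 1. The cause of the changes below was not tested, and those from fewer libraries or genes come with smaller fits.

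Of all genes, 3182 were called from day 0 to 4, and 897 to 3197 when 1 genotype was left out (897 without WT, 1032 without KI), with 2000 without KI of days 4 to 7. From day 4 to 6, 2 were called, 6 to 12 leaving out a genotype, 6 without KI of days 4 to 7 and 5 without WT MEF, day 4 and iPSC. From day 4 to 7, 3 were called, 3 to 11 leaving out a genotype, 5 without the filter, and 1 each with a pseudocount of 0.1, a filter at 5, quantile scaling or no genotype term. From day 7 to iPSC, 7082 genes and 9 members were called, 2481 to 6930 genes and 4 to 9 members leaving out a genotype (fewest without WT, and 4314 genes without KI), and 4255 genes without WT MEF, day 4 and iPSC. From MEF to iPSC, 5955 genes were called and 2866 to 4655 leaving out a genotype (fewest without WT).

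For KO minus WT, 2037 genes and 0 members were called, and 12 to 7756 genes and 0 to 4 members leaving out a stage (12 without day 6, 37 without day 7, 193 without day 0, 196 without MEF, 7756 without day 4). The filter at 5 gave 1356 genes, leaving out WT MEF and day 4 gave 5325 genes and 1 member, and no filter without day 4 gave 9015 genes and 8 members. For KI minus WT, 338 genes and 0 members became 26 to 2485 genes and 0 to 1 members leaving out a stage (highest without day 4), 576 genes with a pseudocount of 0.1, 185 without WT MEF and day 4, and 1843 genes and 1 member with no filter and no day 4. For KO minus KI, 6404 genes and 4 members became 761 to 8744 genes and 0 to 4 members leaving out a stage (lowest without day 6), 0 members with the filter at 5, which none passes, and 10339 genes and 8 members with no filter and no day 4. For the change of KO minus WT, 11 genes and 0 members became 5 to 6647 genes and 0 to 4 members leaving out a stage (highest without day 4), 17 genes without the filter, 1261 without WT MEF and day 4, and 7122 genes and 6 members with no filter and no day 4. For the change of KI minus WT, 10 genes became 7 to 175 leaving out a stage, 37 without WT MEF and day 4 and 116 with no filter and no day 4.

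Estimates that passed no test changed sign as follows, on the log2 scale. From day 0 to 4, Tfcp2l1 was -0.17 with quantile scaling and -0.14 without WT MEF, day 4 and iPSC, Nr0b1 -0.0060 and -0.045, and Prdm14 -0.026 in the latter. From day 4 to 6, Fbxo15 was -0.13 with a pseudocount of 0.1, and leaving out a genotype Fbxo15 was between -0.40 (without KO) and 0.43 (without WT), Zfp42 between -0.068 and 1.07 and Nr0b1 between -0.065 and 0.31 likewise. From day 4 to 7 Tbx3 was between -0.051 (without KO) and 0.30 (without WT), and Fbxo15 between -0.018 and 1.19 likewise. Tbx3 in KO minus WT was -0.0093 with a pseudocount of 0.1, -0.17 with upper-quartile and -0.18 with quantile scaling, and, leaving out a stage, between -0.14 (without day 7; -0.061 without day 6) and 0.21 (without day 4). Its KI minus WT was then between -0.00081 (without day 7) and 0.019 (without day 6), and its KO minus KI 0.19 without day 4, with or without the filter. Its change of KO minus WT was -0.041 with upper-quartile and -0.0047 with quantile scaling, and between -0.069 (without day 0; -0.012 without day 7) and 0.34 (without day 4) leaving out a stage. Its change of KI minus WT was 0.097 and 0.22 under those scalings, 0.23 without WT MEF and day 4, and between -0.20 (without day 0) and 0.091 (without MEF) leaving out a stage. Quantile scaling also called Tbx3 lower in KO than in KI, by -0.43.

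With the MEF and day 0 level subtracted, the median iPSC share was 0.780% in WT and 0.248% in KO at day 4, 3.57% in KO at day 6, and -0.0199%, -0.0396% and 0.00787% in KI at days 4, 6 and 7. At an FPKM of 5, 0 members were on in WT and KI on days 4, 6 and 7 and in KO on day 4, and 2 in KO on day 6. At 5% of the iPSC level 2 were on in WT on day 7, 5 in KO on day 6 and 2 in KI on day 4. At an FPKM of 0.5, 4 were on in KO on day 4, the same 4 as in WT. With a floor of 1 FPKM, KO and WT differed by 2-fold in 1 of 3 members reaching it at day 4 and 7 of 8 at day 6. Of all genes, 2389 of 13940 and 4472 of 14197 did. KI and WT differed so in 2 of 3, 1 of 2 and 4 of 5 members at days 4, 6 and 7. For all genes this was 4631 of 13947, 1792 of 13493 and 2184 of 13559. WT between days 4 and 7 did in 2 of 5 members and 3852 of 13981 genes. With the floor at 5 FPKM, the KO count at day 6 was 1 at 4-fold (1070 of 10582 genes). It was 0 at 2-fold with upper-quartile scaling (2605 of 10423).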
